A study of Mus musculus with 8 samples.

Results

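The 30 genes described here encode enzymes of cholesterol and fatty acid synthesis and the proteins that control them, and their RNA was sequenced in mouse lumbar sensory ganglia (dorsal root ganglia) after a spinal nerve had been ligated. They were taken by gene symbol as a set regulated by sterol regulatory element-binding proteins (SREBPs), and all 30 were found among the 53801 genes of the count table. The 8 libraries each hold ganglia L3 to L5 of 3 pooled mice, labelled male C57BL/6J: the injured (left, ipsilateral) side at 1, 3 and 7 days after tight ligation of the left L4 spinal nerve, their contralateral side, and the left and right side of 1 pool labelled no injury. An injured-side library therefore also holds the neighbouring ganglia whose nerve was not tied, and each side has 1 library a day, so a single day has no replicate check. Each library had 20488115 to 21652688 counted reads. The titles of the no injury libraries carry the letters WT, and those of the operated libraries do not.

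Cells make cholesterol from acetyl-CoA through mevalonate, squalene and lanosterol, and make long-chain fatty acids from malonyl-CoA. When membrane sterol is low, SCAP escorts the SREBPs from the endoplasmic reticulum to the Golgi, where they are cleaved into active transcription factors, and when it is high the INSIG proteins hold SCAP back. SREBP2 mainly drives sterol genes and SREBP1 mainly drives fatty acid genes. In the peripheral nervous system the pathway is best known in Schwann cells, which need large amounts of cholesterol for myelin, and growing axons also need membrane lipid.

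The promoters of members of the set are shown because SREBPs bind sterol response elements together with NF-Y, a factor that binds CCAAT boxes. The RefSeq promoter table (GRCm38.p6) matched 24 of the 30 genes with 32 start sites, and its windows run from 250 bases before the start to 50 after. On either strand, CCAAT occurred in 20 of the 32 member windows (62.5%) and in 38.2% of 21238 windows of protein-coding genes. TCACNCCAC, a sterol response element-like motif that does not overlap CCAAT, occurred in 1 window (3.12%, against 1.19% of all windows), and the E-box CACGTG in 6 (18.8%, against 7.84%). Many sterol response elements deviate from this spelling, and a match describes letters only. The 250 bases before the start of 5 members are printed 5′ to 3′ on the gene's strand. Capitals mark CCAAT boxes in either direction and the element-like motif of Hmgcs1. Mvd, Hsd17b7 and Fasn passed the test for injury given below, while Hmgcs1 and Mvk did not. Ebp, Insig1 and Srebf1 also passed it but are not printed. The windows lie at chr13:119690101-119690350 (Hmgcs1, plus strand), chr5:114444019-114444268 (Mvk, plus), chr8:122443423-122443672 (Mvd, minus), chr1:169969206-169969455 (Hsd17b7, minus) and chr11:120824548-120824797 (Fasn, minus).
Hmgcs1: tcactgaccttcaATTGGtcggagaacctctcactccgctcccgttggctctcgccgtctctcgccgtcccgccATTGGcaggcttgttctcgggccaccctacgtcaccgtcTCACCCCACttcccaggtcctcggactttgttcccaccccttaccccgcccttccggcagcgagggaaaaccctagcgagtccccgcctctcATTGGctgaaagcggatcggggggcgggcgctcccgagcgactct
Mvk: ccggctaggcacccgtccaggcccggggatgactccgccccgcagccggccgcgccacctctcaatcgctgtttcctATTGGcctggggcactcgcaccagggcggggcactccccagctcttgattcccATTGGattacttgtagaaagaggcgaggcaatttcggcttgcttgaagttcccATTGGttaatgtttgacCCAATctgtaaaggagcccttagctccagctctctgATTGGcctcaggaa
Mvd: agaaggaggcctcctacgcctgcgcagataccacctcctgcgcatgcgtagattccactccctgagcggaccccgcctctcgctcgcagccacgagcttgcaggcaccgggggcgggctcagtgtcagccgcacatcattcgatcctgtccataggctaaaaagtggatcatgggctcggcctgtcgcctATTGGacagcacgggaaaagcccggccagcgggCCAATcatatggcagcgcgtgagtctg
Hsd17b7: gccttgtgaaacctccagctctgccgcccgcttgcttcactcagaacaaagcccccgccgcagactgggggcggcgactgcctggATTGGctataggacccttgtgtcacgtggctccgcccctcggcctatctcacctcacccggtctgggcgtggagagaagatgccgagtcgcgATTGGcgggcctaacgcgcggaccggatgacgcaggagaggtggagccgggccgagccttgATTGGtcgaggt
Fasn: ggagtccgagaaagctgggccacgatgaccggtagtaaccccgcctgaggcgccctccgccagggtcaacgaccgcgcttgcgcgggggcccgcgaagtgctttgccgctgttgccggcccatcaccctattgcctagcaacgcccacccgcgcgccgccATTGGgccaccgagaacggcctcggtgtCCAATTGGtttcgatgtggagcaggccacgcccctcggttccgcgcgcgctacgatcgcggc

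Hmgcs1 was the member whose window held the element-like motif, as TCACCCCAC 137 bases before the start, besides 3 CCAAT boxes. Mvk held 5 CCAAT boxes, Hsd17b7 3, Fasn 3 (of which a pair overlaps, on opposite strands) and Mvd 2. Among the members not printed, Ebp held 2, Insig1 1, and Srebf1 1, 0 and 1 at its start sites.

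Some facts of the libraries bear on the results. The injury-induced transcription factor gene Atf3 stood at 464, 629 and 618 CPM (a gene's reads scaled to the same total in every library) in the injured libraries of days 1, 3 and 7, at 126, 167 and 110 CPM in contralateral ones and at 10.9 and 11 CPM in the left and right no injury libraries. Sprr1a stood at 9.13, 466 and 915 CPM injured, 3.52, 126 and 130 CPM contralateral and 0.145 and 0.323 CPM without injury. Both genes were thus higher in contralateral than in no injury libraries. Where 5 uninjured libraries are named below, the contralateral ones are counted as uninjured by their labels. The pool labelled no injury went against its labelled sex: Xist, the RNA of the inactive X, had 4931 and 4129 reads there against at most 3 in any operated library, and the Y-linked gene Kdm5d, at 280 to 354 reads in operated libraries, had 0. Sensory neuron genes were abundant in every library (11 genes, summed level 16967 to 18127 CPM in injured, 18876 to 19246 CPM in contralateral and 18098 to 18639 CPM in no injury libraries). The contralateral library of day 1 held the most RNA of neutrophil and marrow genes (10 genes, 1203 CPM, against 321 to 809 CPM in the others). In such bulk samples fewer cells of a type and less RNA per cell cannot be told apart.

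Without injury the set was well expressed. Per kilobase of annotated exon, Scd2, a stearoyl-CoA desaturase, had the highest level of the members (402 CPM per kb, mean of the libraries labelled no injury), followed by Hmgcs1, which makes HMG-CoA (215 CPM per kb). The squalene epoxidase gene Sqle stood at 53.1, the kinase gene Pmvk at 50.8 and the squalene synthase gene Fdft1 at 44.7 CPM per kb. The lowest were Idi1 (1.5), Acaca (3.90) and Fdps (5.09 CPM per kb). Idi1 had 96 to 135 reads per library and is the least precise member. Acaca has an annotated exon length of 17074 bases over all its transcripts, which lowers its value per kb. Fdps shares 26.7% of its exon length with another annotated gene on the same strand, Fdft1 shares 18.3% with Ctsb on the opposite strand and Tm7sf2 shares 12.1% with Vps51, so their reads could be split or added by the counting.

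The first question was how the set differed by side within each operated pool, against the left over right ratio of the pool labelled no injury. These are ratios of single libraries on TMM-normalised log2 CPM and have no test. At day 1 all 30 members were higher on the injured side, by 0.09 to 0.71 on the log2 scale, with a median of 0.39 (1.31-fold). Of 13276 genes that reached 50 reads in either library, 53.4% were higher and the median was 0.02. At day 3 the set had 15 members higher and 15 lower with a median of -0.01 (all genes 51.3% higher, median 0.01). At day 7 there were 17 higher and 13 lower with a median of 0.06 (all genes 50.4% higher, median 0.00). Left over right without injury, in 1 pool, 7 members were higher and 23 lower with a median of -0.05 (all genes 50.3% higher, median 0.00). Each of the 30 day 1 ratios was larger than the size of the same gene's left over right ratio, a limit passed upward by 35.3% of all genes.

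**Figure D1:**
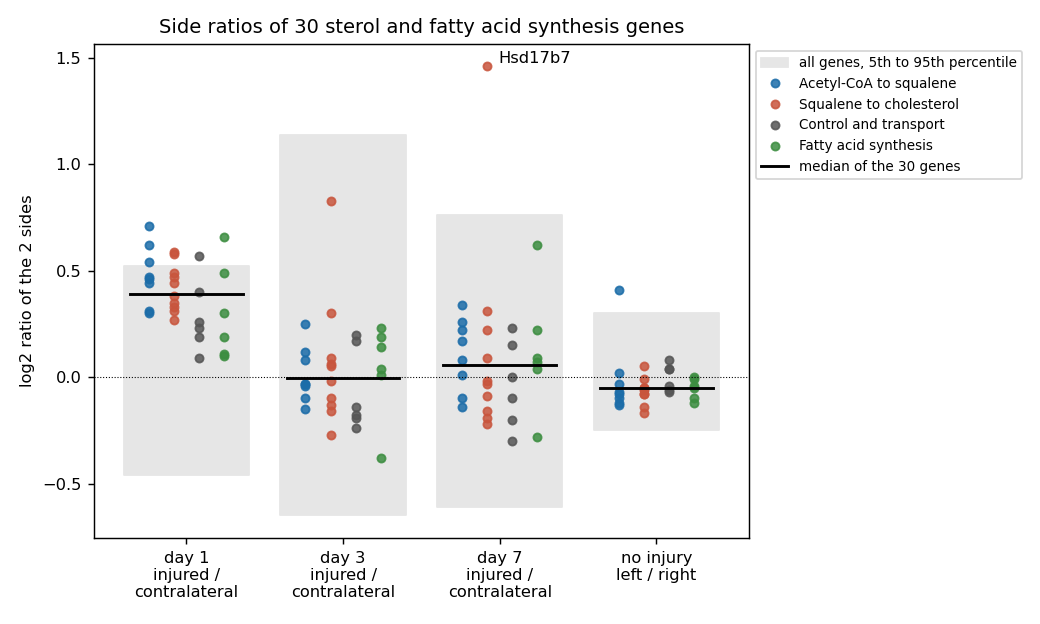
Log2 ratio of the 2 sides (vertical axis) for the 30 genes by day, injured over contralateral, and left over right in the pool labelled no injury; points are genes coloured by role, black lines the median of the set and grey bands the 5th to 95th percentile of all genes with at least 50 reads. The day 1 points all lie above 0 with a median of 0.39, while the other medians lie between -0.05 and 0.06, and Hsd17b7 stands highest at day 7 (1.46).

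The day 1 differences were small for single genes. Past 1.5-fold were 4 members, Fdps, Fasn, Mvk and Hsd17b7, and none was lower past it, against 3.84% of all genes higher and 3.41% lower. Past a ratio of 5 to 4 were 18 members, against 10.8% of all genes, and past 2-fold none (0.919% of all genes). At day 3 only Hsd17b7 was higher past 1.5-fold (13.1% of all genes) and none was lower (6.24%), with no member past 2-fold (6.37%). Elovl6 was lower past 5 to 4 on that day (16%). At day 7 Hsd17b7 and Fasn were higher past 1.5-fold (7.26% of all genes) and none was lower (5.47%), and Hsd17b7 was also past 2-fold (3.12%). In the pool labelled no injury no member was past 1.5-fold (1.27% of all genes higher, 0.894% lower), and Idi1, the sparsest, was 1.32-fold higher on the left, past 5 to 4 like 4.43% of all genes. The ratio of day 1 was the largest of the 3 days for 27 members (38.7% of all genes).

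Among the enzymes of the mevalonate arm, day 1 side ratios ran between 0.30 and 0.71 (log2). Fdps, farnesyl diphosphate synthase, stood at 34.5, 18.6 and 18.2 CPM in injured libraries (days 1, 3, 7 throughout), against 21.5, 17.2 and 20 CPM in contralateral ones and 21 and 21.8 CPM in the left and right libraries without injury. Its injured library of day 1 was high and the other 7 lay close together. Mvk, mevalonate kinase, stood at 81.2, 59.1 and 65.0 CPM in injured libraries, against 53.9, 52.8 and 55.7 CPM in contralateral ones and 57.8 and 62.8 CPM without injury. Mvk was again highest in the injured library of day 1, at a side ratio of 1.54-fold. Hmgcs1 differed from these: it had 917, 789 and 858 CPM in injured libraries, 763, 791 and 809 CPM in contralateral ones, and 958 and 1018 CPM without injury, where it was highest. Its day 1 side ratio of 1.23-fold therefore set an injured level against a contralateral level that was itself below that of the uninjured pool. The contralateral level of Mvk at day 1 was also below both no injury libraries, but its injured level was above them. Over the 8 genes from acetyl-CoA to squalene (Acat2, Hmgcs1, Mvk, Pmvk, Mvd, Idi1, Fdps and Fdft1) the median side ratio was 0.46 at day 1, -0.03 at day 3 and 0.12 at day 7 (log2).

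The later enzymes, from squalene to cholesterol, had a median of 0.41 at day 1, 0.01 at day 3 and -0.03 at day 7 over 10 genes. Lss, lanosterol synthase, stood at 112, 58.6 and 60.2 CPM in injured libraries, against 82.6, 54.6 and 61.1 CPM in contralateral ones and 66.2 and 63.4 CPM without injury. For Lss both libraries of day 1 were high, the injured one more so. Msmo1, which removes the methyl groups at carbon 4, and Dhcr7, which makes cholesterol from its dehydro precursor, were 1.24-fold and 1.28-fold higher on the injured side at day 1 and at 0.893 and 0.828 of the contralateral level at day 3.

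Among the control and transport genes Stard4, a soluble sterol carrier, moved furthest between days. It stood at 233, 95.3 and 94.8 CPM in injured libraries, at 161, 110 and 108 CPM in contralateral ones, and at 148 and 138 CPM without injury. Both libraries of day 1 were above those without injury and the other operated libraries below them. Insig1, which retains SCAP and is itself a target of the SREBPs, stood at 120, 87.8 and 86.5 CPM in injured libraries, against 93.3, 74.2 and 77.8 CPM in contralateral ones and 94.1 and 96.8 CPM without injury. Its paralogue Insig2 was 1.14-fold higher at day 1 and at 0.81 of the contralateral level at day 7. The sterol factor gene Srebf2 (1.19-fold) and Scap (1.07-fold) had among the smaller day 1 ratios.

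Fatty acid enzymes were less uniform. Fasn, fatty acid synthase, stood at 564, 424 and 510 CPM in injured libraries, against 364, 363 and 330 CPM in contralateral ones and 413 and 420 CPM without injury, so in CPM all 3 injured libraries were above all 5 uninjured ones, by little at day 3, though not after TMM normalisation. The desaturase genes Fads2 and Fads1 were 1.40-fold and 1.23-fold higher at day 1, and Acaca, acetyl-CoA carboxylase, 1.14-fold. Scd2 had 1.07-fold, 1.01-fold and 1.03-fold at days 1, 3 and 7. Elovl6, a fatty acid elongase, had 115, 103 and 104 CPM in injured libraries, 109, 130 and 126 CPM in contralateral ones, and 158 and 156 CPM without injury: every operated library was below both libraries labelled no injury.

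The injured library of day 1 was the highest of the 8 for 22 of the 30 members, against 14% of 16244 genes, a count made after the values were seen. Relative to the no injury mean the median member was 1.24-fold there, 0.892 and 0.949 in the injured libraries of days 3 and 7, and 0.92, 0.88 and 0.898 in the contralateral libraries of days 1, 3 and 7. Against the left library labelled no injury, in place of the contralateral one, 24 of 30 members were higher at day 1 (median 0.32, all genes 0.00). At day 3, 8 were higher (median -0.19, all genes 0.00), and at day 7, 12 (median -0.10, all genes -0.01). Against the mean of the other uninjured libraries, which leaves out the contralateral library of day 1 with its marrow genes, 27 of 30 were higher at day 1 (median 0.40, all genes 0.01). There 17 members were past 5 to 4, against 12.8% of all genes. Shares of all genes above 0 are not given for the ratios over these other control libraries. All of these ratios use the pool labelled no injury, whose sex by Xist and Kdm5d differs from that of the operated pools. Sex, pool and operation cannot be told apart in them.

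**Figure D2:**
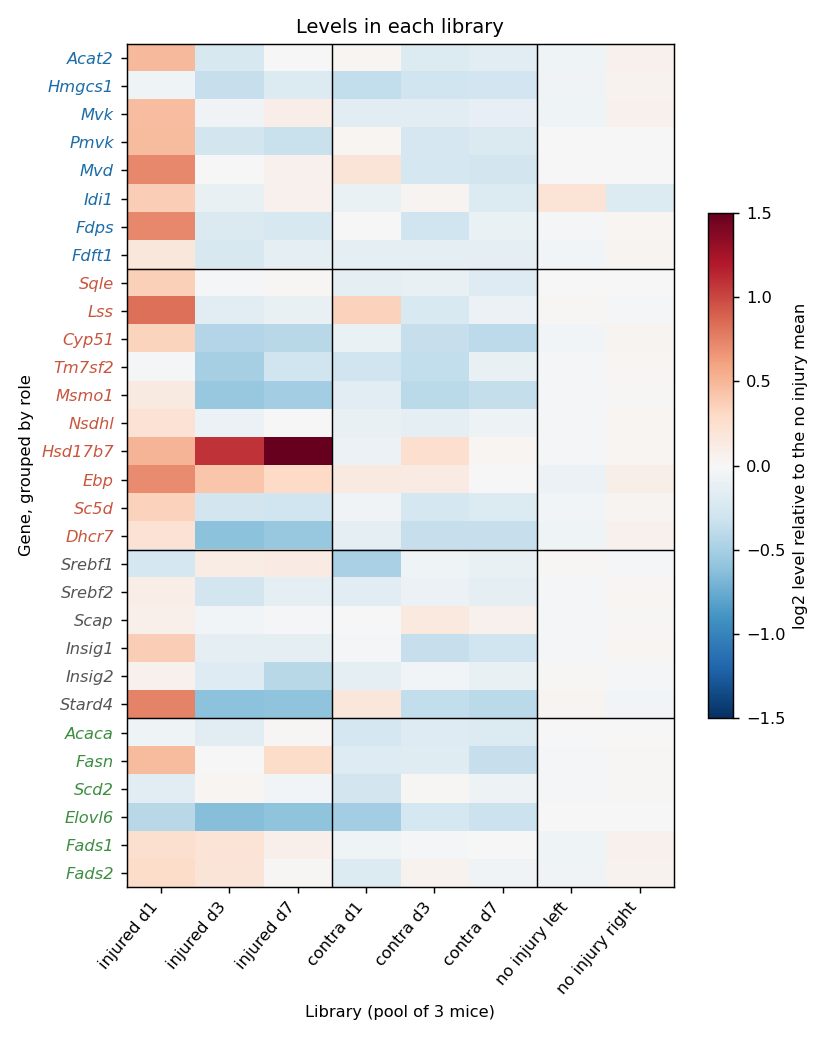
Log2 level of each gene (rows, grouped by role and coloured as in the plot of side ratios) in each of the 8 libraries (columns), relative to the mean of the left and right no injury libraries. The injured library of day 1 was above that mean for 24 of 30 genes, and the contralateral libraries were below it for 23, 24 and 28 genes at days 1, 3 and 7. Shares of all genes above or below that mean are not given, so these counts cannot be read as particular to the set.

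Markers of other cells at day 1 were as follows. The 15 myelinating Schwann cell genes summed to 5384 CPM in the injured library and 5140 CPM in the contralateral one, and 9 satellite glia genes to 1319 CPM injured and 1199 CPM contralateral. The 9 adipocyte genes summed to 14.1 CPM injured and 10.8 CPM contralateral. After normalisation 6 of these 9 genes had the higher level in the injured library and 2 the lower, and Lep had 0 reads in both libraries. Cfd had 28 reads injured and 5 contralateral, Pck1 15 injured and 4 contralateral, and Cidec 10 injured and 3 contralateral. Adipoq had 10 reads injured and 12 contralateral, and Plin1 8 injured and 5 contralateral. The 10 neutrophil and marrow genes summed to 325 CPM injured and 1203 CPM contralateral, and the 6 fibroblast genes to 563 CPM injured and 375 CPM contralateral. The 10 macrophage genes summed to 80 CPM injured and 120 CPM contralateral. Of these sums Lyz2 made up 33.8 CPM injured and 75.6 CPM contralateral, and the median side ratio of the macrophage genes was -0.03 (log2). The 6 endothelial genes summed to 102 CPM injured and 85.6 CPM contralateral, and 6 skeletal muscle genes to 18.1 CPM injured and 15.6 CPM contralateral. The part of adipocytes, fibroblasts and endothelial cells in the day 1 difference was not tested.

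The second comparison asked which members differed with injury over the 3 operated pools, by a fit to all 8 libraries that blocks on pool. In such a fit the fold change compares injured and contralateral sides, and the pool labelled no injury bears only on the spread. Of the 30 members, all of which passed the filter on low counts, 6 rose at an adjusted p under 0.05 (edgeR quasi-likelihood test, adjusted over 16244 genes) and 0 fell, against 10.1% of all genes higher and 8.02% lower. Those 6 are 20% of the set. Their roles differ: Mvd, Hsd17b7 and Ebp are sterol enzymes, Srebf1 and Insig1 are regulators and Fasn is the fatty acid synthase. The median log2 fold change of the set was 0.15 (all genes 0.02), and 24 of 30 fitted values were above 0 (all genes 52.5%). At an unadjusted p under 0.05, 12 members were higher and 0 lower, against 18.5% and 16.2% of all genes. Higher in all 3 pools were 13 members (28.4% of all genes) and lower in all 3 none (25.3%).

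Hsd17b7 (chromosome 1, 169949535 to 169969241, GRCm38) encodes the reductase that acts on the 3-keto sterol intermediates, and it rose most. It stood at 126, 196 and 257 CPM in injured libraries, against 85.3, 107 and 93.0 CPM in contralateral ones and 89.7 and 92 CPM without injury. All 3 injured libraries were above all 5 uninjured ones, and the injured level was higher on each later day. The fitted change was 1.95-fold (log2 0.96 ± 0.16, SE, 3 injured pools; edgeR adjusted p = 0.0173), higher in 3 of 3 pools. Its adjusted p was 0.0998 without the day 3 pool and 0.0805 without the filter on low counts.

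Fasn (chromosome 11, 120805846 to 120824547) averaged 499 ± 70.7 CPM in injured libraries and 352 ± 19.4 CPM in contralateral ones (SD, n = 3 each). It rose by 0.49 ± 0.10 (log2, SE; edgeR adjusted p = 0.0161), in 3 of 3 pools, and its adjusted p was 0.122 without the day 7 pool and 0.0543 without the pool labelled no injury. At day 7 its side ratio of 1.54-fold stood beside summed myelinating Schwann cell levels of 8973 CPM injured and 8283 CPM contralateral, and macrophage levels of 366 CPM injured and 179 CPM contralateral. Fibroblast genes summed to 563 to 1449 CPM in injured, 375 to 779 CPM in contralateral and 981 to 1121 CPM in no injury libraries. The 9 adipocyte genes summed to 105 CPM injured and 46.4 CPM contralateral at day 7. Of that sum Car3 made up 94.4 CPM injured and 27.9 CPM contralateral, Cidec was 1.61-fold higher, and the other 7 were lower on the injured side. The part of macrophages, fibroblasts and adipocytes in the Fasn and Hsd17b7 changes was not tested.

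Ebp, the sterol isomerase that binds emopamil (X chromosome), stood at 46.4, 39.5 and 35.9 CPM in injured libraries, against 31.7, 31.2 and 28.8 CPM in contralateral ones and 27.5 and 30.6 CPM without injury, with no overlap between injured and uninjured libraries. Such a gap was found for Hsd17b7, Ebp and Fads1 on the normalised scale, and for 12.1% of all genes. Ebp rose by 0.40 ± 0.08 (log2, SE; edgeR adjusted p = 0.0167). Mvd, mevalonate diphosphate decarboxylase (chromosome 8), stood at 95.6, 59.9 and 62.5 CPM in injured libraries, against 67.3, 48.9 and 49.2 CPM in contralateral ones and 60 and 58.5 CPM without injury. Mvd was higher on the injured side within every pool, but its injured level at day 3 was below that of the contralateral library of day 1. Its fitted change was 0.38 ± 0.07 (log2, SE; edgeR adjusted p = 0.0106). Without the day 7 pool the adjusted p was 0.0745 for Ebp and 0.0662 for Mvd, and without the pool block that of Mvd was 0.189.

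The regulators changed less. Insig1 rose by 0.25 ± 0.06 (log2, SE; edgeR adjusted p = 0.0319) and Srebf1 by 0.21 ± 0.05 (adjusted p = 0.0287), each in 3 of 3 pools. Srebf1 stood at 63.0, 84.7 and 84.6 CPM in injured libraries, against 54.8, 73.4 and 71.7 CPM in contralateral ones and 78.6 and 75.7 CPM without injury: the libraries of day 1 were the lowest on each side, while the side ratio was 1.17-fold, 1.12-fold and 1.18-fold. The Insig1 call was lost whichever pool was left out, with adjusted p of 0.0657 to 0.0938. The Srebf1 call was lost without day 3, day 7 or the pool labelled no injury (0.0736 to 0.157), and by DESeq2 (0.0652). The partner genes Srebf2, Scap and Insig2 did not pass (fitted log2 0.03, -0.07 and -0.09, adjusted p = 0.854, 0.509 and 0.546).

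**Figure D3:**
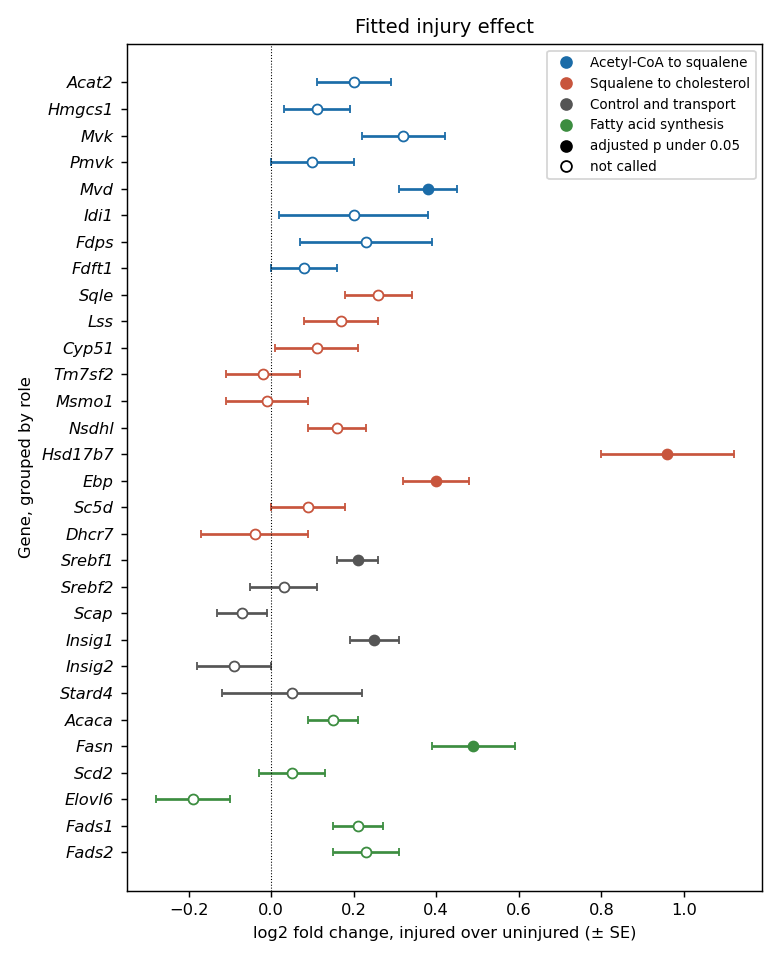
Fitted log2 fold change of each gene, injured over contralateral side (horizontal axis, labelled injured over uninjured, bars are SE), grouped by role. The fit used all 8 libraries with pool as block. Filled points have an edgeR adjusted p under 0.05 and open points do not. Hsd17b7 (0.96), Fasn (0.49), Ebp (0.40), Mvd (0.38), Insig1 (0.25) and Srebf1 (0.21) are filled, and Elovl6 has the lowest value (-0.19).

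Of the other members Sqle (log2 0.26, adjusted p = 0.059), Fads1 (0.21, 0.0594) and Mvk (0.32, 0.0624) came closest to the threshold. Elovl6 (-0.19), Insig2, Scap, Dhcr7 (-0.04), Tm7sf2 (-0.02) and Msmo1 (-0.01) had fitted values below 0. For many members the average over days joins a higher day 1 with values near or below 0 later. Without the day 1 pool 5 members were higher (Mvd, Hsd17b7, Ebp, Srebf1 and Fasn) and 4 lower, namely Elovl6 (log2 -0.33, adjusted p = 0.00334), Dhcr7 (-0.25, 0.0246), Stard4 (-0.22, 0.0271) and Insig2 (-0.23, 0.0461). In that setting 2382 genes were higher and 2287 lower in all. Without the day 7 pool 1 member, Hsd17b7, was higher, beside 475 genes higher and 156 lower in all. Shares of all genes are not given for the fits that leave out a pool. Their member counts therefore cannot be read as particular to the set. When a side term was added, so that the left over right difference of the uninjured pool became the baseline, no member passed the edgeR test at an adjusted p under 0.05, and 6 genes in all were higher. Against only the no injury libraries, with no pool block, no member was higher and Elovl6 was lower (log2 -0.55, edgeR adjusted p = 0.0248). In that fit 703 genes were higher and 442 lower in all, and Insig1 and Srebf1 had values of 0.05 and 0.01. It counted the left and right libraries of 1 pool as separate samples, so its p-values do not reflect how pools without injury vary. That pool also differs from the operated ones in the sex shown by Xist and Kdm5d.

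**Figure D4:**
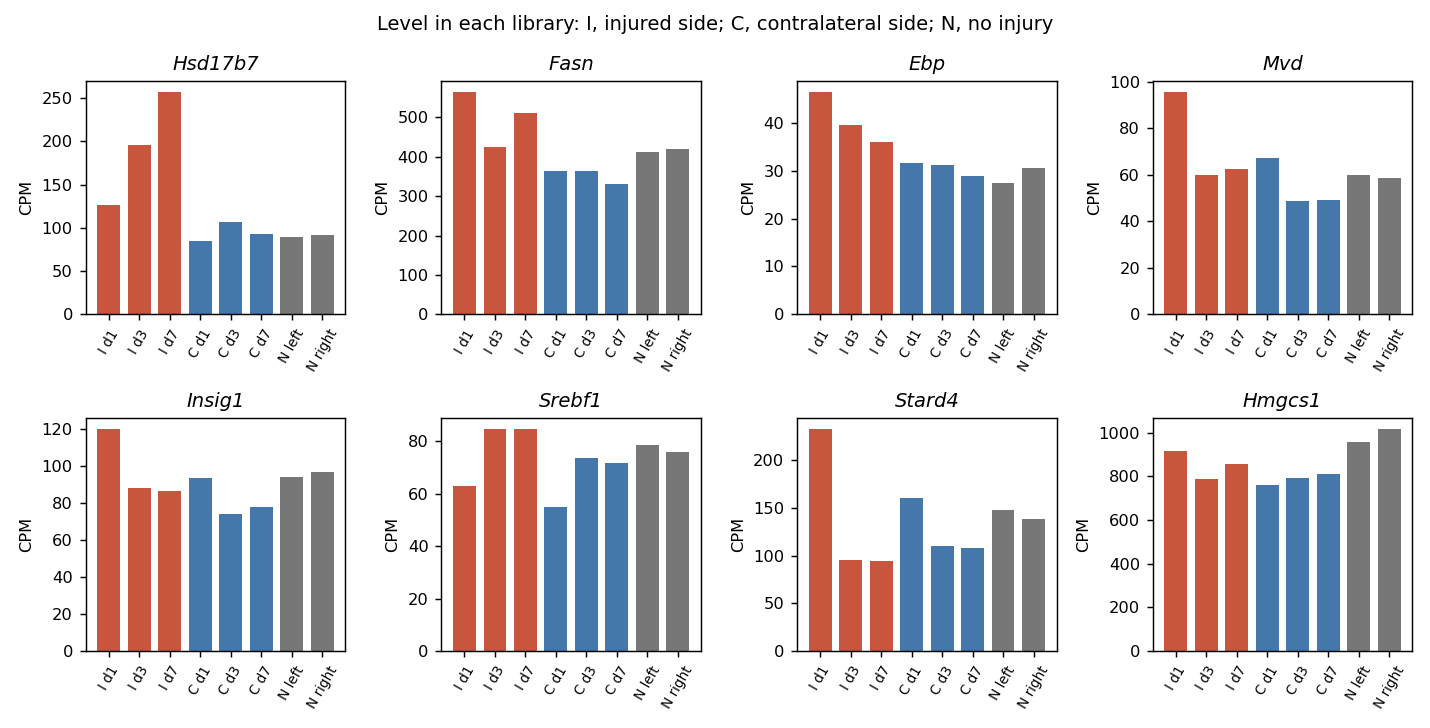
Level in CPM (vertical axes, from 0) of the 6 genes that rose with injury and of Stard4 and Hmgcs1 in each of the 8 libraries. Injured (I), contralateral (C) and no injury (N) libraries run from left to right. The rise is that of the injured over the contralateral side. Srebf1 averaged 77.4 CPM in injured and 77.2 CPM in no injury libraries, and Insig1 at days 3 and 7 was below both no injury libraries. Hsd17b7 was higher on each later injured day, Stard4 was high in both day 1 libraries, and Hmgcs1 was highest without injury.

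The third comparison asked whether the side difference changed with the day, by a term for the injured state times log2 of the day. No gene passed the edgeR test at an adjusted p under 0.05 (0 of 16244, 0% in each direction), and by unadjusted p under 0.05 3.67% of genes had a slope above 0 and 4.33% one below 0. Of the members 1, Hsd17b7, was above and 12 were below 0 at that unadjusted limit, and 28 of 30 had a value below 0, against 53.2% of all genes. Hsd17b7 had a slope of 0.30 (log2 per doubling of the day; unadjusted p = 0.00112 by edgeR, adjusted p = 0.216). The lowest slopes were those of Fdps (-0.31), Stard4 (-0.29) and Dhcr7 (-0.22). Leaving out a pool leaves 2 days with 1 library a side each, so that the slope is a difference of 2 single side ratios and the 1 residual degree of freedom comes from the left and right libraries of the no injury pool. Calls in those fits therefore assume that the operated libraries vary like that pair, and are given as counts only. Without day 7, 14 members were lower and 0 higher (all genes 644 higher, 570 lower). Without day 3, 8 members were lower and 1, Hsd17b7, higher (281 higher, 238 lower). Without day 1, 0 members were lower and 1, Hsd17b7, higher (12 higher, 82 lower).

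The fourth comparison set the contralateral libraries of the operated mice against the pool labelled no injury, whose left and right libraries were summed to 1 sample. That pool also differs in the sex shown by Xist and Kdm5d and in the letters WT in its titles. Sex, pool, operation and whatever those letters stand for cannot be told apart here. Fibroblast genes summed to 375 to 779 CPM in contralateral and 981 to 1121 CPM in no injury libraries, and skeletal muscle genes to 15.6 to 108 CPM in contralateral and 142 and 1070 CPM in no injury libraries; their part was not tested. By edgeR no member passed an adjusted p under 0.05, against 0.125% of 16747 genes higher and 0.155% lower, and at an unadjusted p under 0.05 0 members were higher and 8 lower (all genes 4.1% and 4.74%). DESeq2 called 1 member lower, Hmgcs1. The fitted values of 26 of 30 members were below 0 (all genes 48.8%), with a median of -0.14 (all genes 0.00). The lowest were Elovl6 (-0.36), Hmgcs1 (-0.32), Msmo1 (-0.30) and Dhcr7 (-0.27), and Hsd17b7, Ebp, Scap and Lss lay between 0.04 and 0.08. For 17 members all 3 contralateral libraries were below both libraries labelled no injury, against 19% of all genes. Without the contralateral library of day 1 the median of the set was -0.17. Stard4 then had -0.39, Msmo1 -0.38, Cyp51 -0.37, Dhcr7 -0.34, Insig1 -0.32 and Elovl6 -0.29. The spread in that fit comes only from the difference between the contralateral libraries of days 3 and 7, so its calls are not given.

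Other genes of the pathway were taken from 2 lists. Of 28 further SREBP targets and lipid synthesis genes tested, 6 rose with injury and 0 fell, beside 10.1% of all genes higher and 8.02% lower, with a median log2 of 0.04 (all genes 0.02). The lowest p belonged to Por, the electron donor of the P450 enzymes (log2 0.34 ± 0.07, SE; edgeR adjusted p = 0.0177), Cyb5r3, a cytochrome b5 reductase (0.40 ± 0.08, adjusted p = 0.0199), and Rdh11, a retinol dehydrogenase (0.32 ± 0.07, adjusted p = 0.0202). The side ratio of this list had a median of 0.20 at day 1, -0.03 at day 3 and 0.01 at day 7. Rdh11 stood at 120, 77.4 and 78.5 CPM in injured libraries, against 86.5, 66.5 and 64.3 CPM in contralateral ones and 79.9 and 76.8 CPM without injury, again highest in the injured library of day 1.

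Of 25 genes of sterol efflux, uptake and storage 5 rose and 1 fell, beside the same shares of all genes (10.1% higher, 8.02% lower), with a median of 0.18 (all genes 0.02). Abcg1, a sterol exporter, stood at 27.6, 33.4 and 33.3 CPM in injured libraries, against 38.2, 50.5 and 42.6 CPM in contralateral ones and 49.5 and 50.9 CPM without injury. It fell by 0.48 on the log2 scale (SE 0.07; edgeR adjusted p = 0.00573), in 3 of 3 pools. Abca1, another sterol exporter, which was added after its values were seen, stood at 106, 317 and 384 CPM in injured libraries, against 85, 138 and 117 CPM in contralateral ones and 107 and 90.6 CPM without injury. Its fitted change of 2.12-fold (log2 1.08 ± 0.27, SE; edgeR adjusted p = 0.0564) did not pass. Plin2, a coat protein of lipid droplets, rose 2.30-fold (adjusted p = 0.0195), with side ratios of 0.60, 1.35 and 1.62 (log2) at days 1, 3 and 7. Scarb1, a lipoprotein receptor, rose 1.48-fold (adjusted p = 0.0172) and Lrp8, an apolipoprotein E receptor, by 0.22 on the log2 scale (adjusted p = 0.0361). The side ratio of this list had a median of -0.03 at day 1, 0.34 at day 3 and 0.17 at day 7, an order of days unlike that of the synthesis genes. The macrophage genes summed to 80, 366 and 366 CPM in injured libraries, against 120, 101 and 179 CPM in contralateral ones. At day 1 Lyz2 made up 33.8 CPM injured and 75.6 CPM contralateral of these sums. The part of macrophages in this list was not tested.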

How the data were processed

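RNA was sequenced in 8 libraries of mouse dorsal root ganglia, each a pool of 3 mice per the labels' protocols. The authors deposited raw counts (whole reads) of 53801 Ensembl IDs, all 8 columns of which were used unchanged. Per the submitters' processing notes, which give no roles, the tools included featureCounts 1.6.3, STAR 2.5.4a, cutadapt 1.16 and DESeq2, and the build was GRCm38 (strand setting, multi-mapping and annotation release: not given in the sources used here). Symbols, positions and exon lengths came from GENCODE M21, which matched 53706 IDs, and promoters from RefSeq (GRCm38.p6).

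The members and lists were chosen with earlier results of these data known. All 30 members are named; of each further list the 4 genes with the lowest p, of which 1 is not reported here. Tests used edgeR 4.0.16 in R 4.3.3 (quasi-likelihood, robust, TMM, filterByExpr at its minimum of 10 counts, Benjamini-Hochberg over all genes tested at 0.05), with 3 residual degrees of freedom for the injury effect (pool as block) and 2 for the day trend and the contralateral comparison. All p-values thus reflect only how these pools vary. The block follows the design, in which mice serve as their own controls; the correlation of both sides' deviations was 0.249 in the day 1 pool, -0.0618 in the day 3 pool and 0.356 in the day 7 pool. Side ratios were differences of log2 CPM (TMM, prior count 2) for genes with 50 reads or more. No 2 libraries agreed within sampling noise (lowest chi-square per gene 6.26). Limits of 3 reads cover counting error only. Scripts were tested on simulated counts. Alternatives were DESeq2 1.42.0, median-ratio size factors, no filter, no block, side as a term, each pool left out, and other prior counts, scalings and limits for ratios; comparisons with other control libraries were added after seeing the data.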

Additional observations from a re-analysis of the deposited data

Results flagged for a closer look

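At day 1 all 30 members were higher on the injured side, and at day 3 15 of them were lower on it, among them Stard4 (side ratio 0.57 at day 1 and -0.24 at day 3, log2), Dhcr7 (0.35 and -0.27) and Elovl6 (0.11 and -0.38). Such a change of sign from day 1 to day 3 was seen in 17.4% of 16244 genes. It was noted because the same contrast ran in opposite directions on 2 days, each with 1 library a side, and the difference between these days was not tested in replicates; the trend over all days called 0 members by edgeR, with 12 falling and 1 rising at an unadjusted p under 0.05.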

How the results depend on the processing

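The 6 members called with injury rest on few pools. Leaving out 1 pool in turn gave 1 to 5 members higher and 0 to 4 lower, 475 to 2382 genes higher and 156 to 2287 lower in all, and a member median of 0.02 to 0.21; Stard4 turned, from -0.22 without day 1 to 0.20 without day 3. With side as a further term 0 members were higher, and 6 genes were higher and 0 lower in all. The pool block was tested both ways: without the replicate block on all libraries 4 members were higher, with 1558 genes higher and 1344 lower, and Mvd, Srebf1 and Insig1 lost their call (adjusted p = 0.189, 0.527 and 0.419); without the block on injured and contralateral libraries only, 0 members, 342 genes higher and 234 lower were called. Against the libraries labelled no injury 0 members were higher and 1 lower, with 703 genes higher and 442 lower. That fit counted both sides of 1 pool as separate samples. DESeq2, median-ratio size factors and no filter kept the member count within 1.5 times. In these fits 30 sign changes fell on 16 members that were not called.

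For the day trend, leaving out a pool gave 0 to 1 members higher and 0 to 14 lower (12 to 644 and 82 to 570 genes), with a median of -0.26 to 0.06, in fits whose spread comes from the no injury pair alone; median-ratio factors called 9 genes higher and no filter 29 higher and 3 lower, none of them members. For the contralateral comparison, leaving out a library gave 0 members higher and 0 to 6 lower (13 to 447 and 3 to 507 genes), with a median of -0.17 to -0.12. There DESeq2 called 1 member lower (85 genes higher, 73 lower), no filter 4 (276 and 422) and separate left and right samples 2 (188 and 184). For the side ratios, a limit of 5 to 4 gave 18 members higher at day 1 (10.8% of all genes) and 1 lower at day 3 (16%). Left over right it gave 1 higher (4.43%). It also gave 1 member higher at day 3 and 3 higher at day 7, for which shares are not given. A limit of 2-fold gave 0 higher at day 1 (0.919%), 0 at day 3 (6.37%) and 1 at day 7 (3.12%). Over the left library without injury, 15 members were higher and 1 lower past 5 to 4 at day 1 (15.5% and 15.4% of all genes). At day 3 these were 2 and 6 (21.7% and 20.1%), and at day 7 2 and 6 (19.4% and 19.5%). Over the mean of the other uninjured libraries they were 17 and 0 at day 1 (12.8% and 10.8%). At day 3 they were 2 and 5 (20.5% and 17.2%), and at day 7 2 and 5 (18.7% and 16.1%). The causes were not tested.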
